A study of Mus musculus with 8 samples.

Results

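The 10 genes Glul, Oat, Slc1a2, Axin2, Lgr5, Tbx3, Rnf43, Znrf3, Lect2 and Rhbg are hepatocyte genes that depend on Wnt/β-catenin signalling around the central vein of the liver lobule. They were taken by symbol and not by a threshold on measured values, though with earlier results of these data known. All 10 were found among the 21532 genes of the table and passed the filter for testing, which kept 15989 genes. RNA-Seq was performed on livers of male db/db mice, whose leptin receptor does not signal and which develop obesity and diabetes. All 8 mice carried this genotype, so that no lean liver stood beside them. From 8 weeks of age, 4 mice received control and 4 received AF1 peptide at 5 mg/kg body weight by retro-orbital injection, 2 times per week for 5 weeks. The AF1 peptide is synthetic and derived from the estrogen receptor ERα, with some residues of that part of the receptor left out. It is joined to a TAT sequence that lets it cross cell membranes. What the control injection held is not given in the sources used here, and 1 library was made from each frozen liver. The comparison asks whether the RNA of these genes differed between control and AF1 peptide-treated livers.

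In the liver, Wnt ligands and R-spondins come from endothelial cells of the central vein. Where they reach hepatocytes, Wnt ligands bind Frizzled and LRP receptors, the destruction complex that degrades β-catenin is held back, and β-catenin enters the nucleus and works with TCF factors. Pericentral hepatocytes then express glutamine synthetase and other genes of ammonia and glutamate handling, while urea synthesis and gluconeogenesis are mainly periportal. R-spondin binds LGR receptors and removes the ubiquitin ligases RNF43 and ZNRF3, which otherwise take Frizzled off the cell surface, and AXIN2 is a feedback brake on the pathway.

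The core of the site that TCF factors bind is known as CTTTGAT, or ATCAAAG on the other strand. Both strands of the 250 bases before the transcription start were searched for these 7 letters, and no other motif was searched. RefSeq sequences (GRCm38.p6) were at hand for 6 of the 10 genes (Glul, Slc1a2, Oat, Rnf43, Axin2 and Lect2), with 7 windows because Rnf43 has a pair of starts. The letters were found for 2 of these 6 genes, Slc1a2 and Lect2, and in 3.21% of all 32851 promoter windows. These are the 2 windows with the letters. Each is written 5′ to 3′ on the strand of its gene, with the match in capitals and the last base next to the start.
Slc1a2, chr2:102706188-102706437, plus strand, match 207 to 201 bases before the start: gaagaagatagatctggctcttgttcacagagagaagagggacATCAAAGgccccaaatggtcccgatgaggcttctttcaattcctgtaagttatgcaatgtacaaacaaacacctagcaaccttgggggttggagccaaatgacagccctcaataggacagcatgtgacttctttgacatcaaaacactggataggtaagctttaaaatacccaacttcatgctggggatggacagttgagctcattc
Lect2, chr13:56548539-56548788, minus strand, match 32 to 26 bases before the start: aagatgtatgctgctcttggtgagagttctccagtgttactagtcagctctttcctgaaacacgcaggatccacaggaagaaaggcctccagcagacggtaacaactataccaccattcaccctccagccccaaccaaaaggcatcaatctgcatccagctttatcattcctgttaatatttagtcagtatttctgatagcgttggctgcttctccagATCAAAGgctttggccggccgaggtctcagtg
Both matches read ATCAAAG on the strand of the gene. A match describes these letters in this window, and its use in these livers was not measured.

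Reads assigned to genes of the table came to 35260283 to 45117528 in control and 23031880 to 43978158 in AF1 peptide-treated mice. These reads were recovered from the normalized counts, taking the smallest nonzero value of each library as a single read. Values are normalized counts, that is, reads of a gene divided by a size factor of the library. AF1 peptide replicate 1 stood apart from the other AF1 peptide-treated mice. The chi-square per degree of freedom of its reads against theirs was 187 to 264, while theirs against each other were 12.2 to 34.1 and those among control mice 33.1 to 85.4. It had the lowest mitochondrial share of reads, 20.8%, where the other mice had 22.4 to 37.8%. Markers of hepatocytes (9 of 9 at a mean of at least 10), endothelium (9 of 9), central vein endothelium (6 of 6), macrophages (7 of 7), stellate cells (7 of 7) and red blood cells (5 of 5) were present, with 5 of 6 for bile duct cells, 1 of 5 for adipocytes and 0 of 5 for muscle. AF1 peptide replicate 1 had the lowest summed count of each of these lists other than the endothelial. For macrophages this was 2018 against 4106 to 4948 in control mice, and for hepatocytes 2045020 against 2747370 to 2915440. The highest AF1 peptide-treated mouse of each list had 4932 for macrophages and 2849900 for hepatocytes. RNA of whole liver carries no position in the lobule, so the zonation of the 10 genes was not checked here. In such samples fewer pericentral cells and less RNA per cell cannot be told apart.

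None of the 10 genes was called different between the groups, where a call is an unadjusted p under 0.05 with more than 1.3-fold change. limma, fitted on log2(normalized count + 1) over all 15989 genes, called 0 of 10 against 3.69% of all genes. Without the fold threshold, 0 of 10 had an unadjusted p under 0.05 against 6.19%. No gene of the table had a Benjamini-Hochberg adjusted p under 0.05 in limma or in edgeR (0 in each), and DESeq2 gave 3, none of them among the 10. Control and AF1 peptide-treated mice overlapped in all 10, while 3.90% of all genes did not overlap. Rhbg, Slc1a2, Oat, Rnf43 and Axin2 had a log2 fold change above 0 and the other 5 below 0, with a median of 0.02 against -0.01 over all genes.

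The level per length spanned a wide range. Divided by the length of its exons in kilobases, Oat had the highest mean over the 8 mice, 9491 normalized counts per kilobase, followed by Lect2 at 5215 and Glul at 4946. The values of these 3 genes overlapped over the 8 mice. Rhbg (314), Slc1a2 (271), Tbx3 (141) and Rnf43 (110) followed per kilobase, each overlapping with the next. Axin2 at 56.9, Znrf3 at 16.7 and Lgr5 at 6.69 normalized counts per kilobase came last, and each of them was separated from its neighbours in every mouse. In this order of means the metabolic and secreted products stood above the receptors and regulators of the pathway, though Slc1a2 and Tbx3 overlapped. The place of Rhbg is uncertain, since it shares sequence with an overlapping transcript. Lgr5 rested on the fewest reads, 39 to 98 per mouse, and Znrf3 on 59 to 200.

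**Figure D1:**
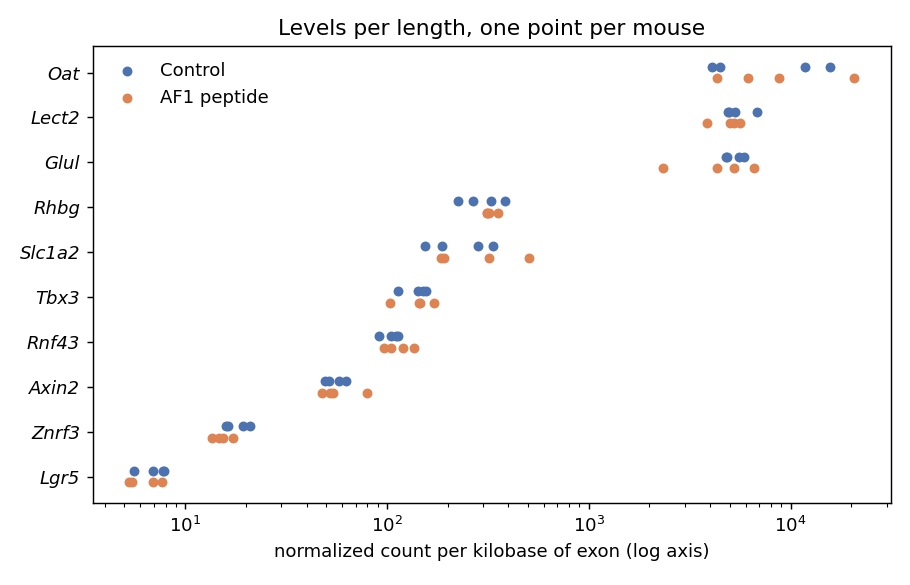
Normalized count per kilobase of exon (log axis) of the 10 genes, with 1 point per mouse and the genes ordered by their mean. Oat, Lect2 and Glul lie at 2345 or above in every mouse and Lgr5 lies under 7.87.

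Lgr5 encodes a receptor for R-spondins. It was at 80.8, 79.8, 57.3 and 71.2 normalized counts in control replicates 1 to 4 and at 54.1, 71.2, 79.1 and 56.0 in AF1 peptide replicates 1 to 4. The groups overlapped, and 2 AF1 peptide-treated mice lay below every control mouse. Its log2 fold change was -0.15 (95% interval -0.58 to 0.27), limma unadjusted p = 0.442 and adjusted p = 0.872.

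The ubiquitin ligases Rnf43 and Znrf3, which share the task of clearing Frizzled, had differences of opposite sign. Znrf3 was at 164.8, 153.6, 128.6 and 126.5 normalized counts in control and at 122.2, 107.8, 116.2 and 135.9 in AF1 peptide-treated mice. Here 3 AF1 peptide-treated mice lay under every control mouse and replicate 4 lay within the control range. Its log2 fold change of -0.24 (95% interval -0.56 to 0.07) had the smallest p of the 10 genes, limma unadjusted p = 0.119 and adjusted p = 0.774. Rnf43 was at 747.4, 690.3, 725.3 and 599.6 in control and at 790.4, 690.4, 893.8 and 635.5 in AF1 peptide-treated mice. AF1 peptide replicates 1 and 3 exceeded every control mouse. For Rnf43 the log2 fold change was 0.12 (95% interval -0.16 to 0.40), limma unadjusted p = 0.377 and adjusted p = 0.854. Of the 10 genes this interval was the narrowest, from 0.893-fold to 1.32-fold.

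Axin2, the scaffold protein made in response to the pathway and acting against it, was at 344.5, 285.6, 320.0 and 271.3 normalized counts in control mice. The AF1 peptide-treated mice had 261.3, 286.8, 439.1 and 296.6. Replicate 1 of the AF1 peptide group was the lowest and replicate 3 the highest of all 8 mice. Axin2 had a log2 fold change of 0.05 (95% interval -0.32 to 0.41), limma unadjusted p = 0.778 and adjusted p = 0.967, and it turned to -0.04 with libraries scaled to equal totals, to -0.01 without control replicate 4 and to -0.11 without AF1 peptide replicate 3. Tbx3, a T-box transcriptional repressor, was at 946.0, 1031, 997.7 and 755.4 in control and at 684.9, 1136, 959.7 and 966.1 in AF1 peptide-treated mice. The lowest and the highest of the 8 mice were again both in the AF1 peptide group. Its log2 fold change of -0.01 (95% interval -0.36 to 0.35, limma unadjusted p = 0.967, adjusted p = 0.995) was the closest to 0 of the 10 genes, with both signs among the alternatives.

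Glul encodes glutamine synthetase, which joins ammonia to glutamate in the hepatocytes next to the central vein. Its normalized counts were 18434, 19480, 16132 and 15916 in control mice and 7792, 21914, 17439 and 14389 in AF1 peptide-treated mice. The 4 control mice lay close together, while AF1 peptide replicates 1 and 4 had less than any of them and replicate 2 more. Glul averaged 17490 ± 1749 (SD, n = 4) in control livers and 15384 ± 5930 (SD, n = 4) with AF1 peptide. This gave a log2 fold change of -0.28 (95% interval -0.87 to 0.32), limma unadjusted p = 0.327 and adjusted p = 0.839. Without AF1 peptide replicate 1 it was 0.02.

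Oat encodes ornithine aminotransferase, which turns ornithine toward glutamate. Its normalized counts were 37016, 27690, 10584 and 9649 in control and 48817, 20741, 10236 and 14455 in AF1 peptide-treated mice. Replicates 1 and 2 of each group were the 4 highest mice, and replicates 3 and 4 of each group the 4 lowest. The highest mouse had 5.06 times the value of the lowest, the widest range of the 10 genes. Oat had a log2 fold change of 0.13 (95% interval -1.05 to 1.31), limma unadjusted p = 0.813 and adjusted p = 0.973. This interval reached from 0.482-fold to 2.48-fold. The sign turned without any of 3 mice, to -0.31 without AF1 peptide replicate 1, to -0.13 without control replicate 3 and to -0.17 without control replicate 4.

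Slc1a2 encodes a glutamate transporter of the plasma membrane. Control mice had 3717, 4418, 2030 and 2466 normalized counts, and AF1 peptide-treated mice 6674, 4186, 2506 and 2434. Only AF1 peptide replicate 1 lay outside the control range. Slc1a2 had a log2 fold change of 0.26 (95% interval -0.48 to 1.01), limma unadjusted p = 0.453 and adjusted p = 0.877, and -0.03 without that mouse. As with Oat, replicates 1 and 2 of both groups were the 4 highest mice. Rhbg, an ammonia transporter, had the same 4 highest mice. Its counts were 748.3, 634.2, 517.8 and 434.6 in control and 622.4, 690.4, 608.8 and 607.9 in AF1 peptide-treated mice, so that the AF1 peptide group lay inside the control range. The log2 fold change of Rhbg was 0.14 (95% interval -0.20 to 0.49), limma unadjusted p = 0.379 and adjusted p = 0.854. Of its 50-base words, 60.4% also occur in the overlapping transcript Gm38392, so reads of both cannot be told apart and the level is uncertain. Gm38392 has no entry of its own among the genes of the table.

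Lect2 encodes a secreted protein of hepatocytes. It was at 6268, 4850, 4578 and 4478 normalized counts in control and at 3525, 5187, 4632 and 4826 in AF1 peptide-treated mice. Here too AF1 peptide replicate 1 alone lay outside the control range. For Lect2 the log2 fold change was -0.15 (95% interval -0.48 to 0.18), limma unadjusted p = 0.332 and adjusted p = 0.842. Among the other genes, Glul shared 11.9% of its 50-base words with other transcripts (pseudogene Glns-ps1 among them, which has no entry in the table). Of the rest, 5 genes shared none and 3 at most 0.647%. Glul, Slc1a2, Axin2 and Tbx3 have annotated antisense neighbours, and the use of strand in counting is not given in the sources used here.

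**Figure D2:**
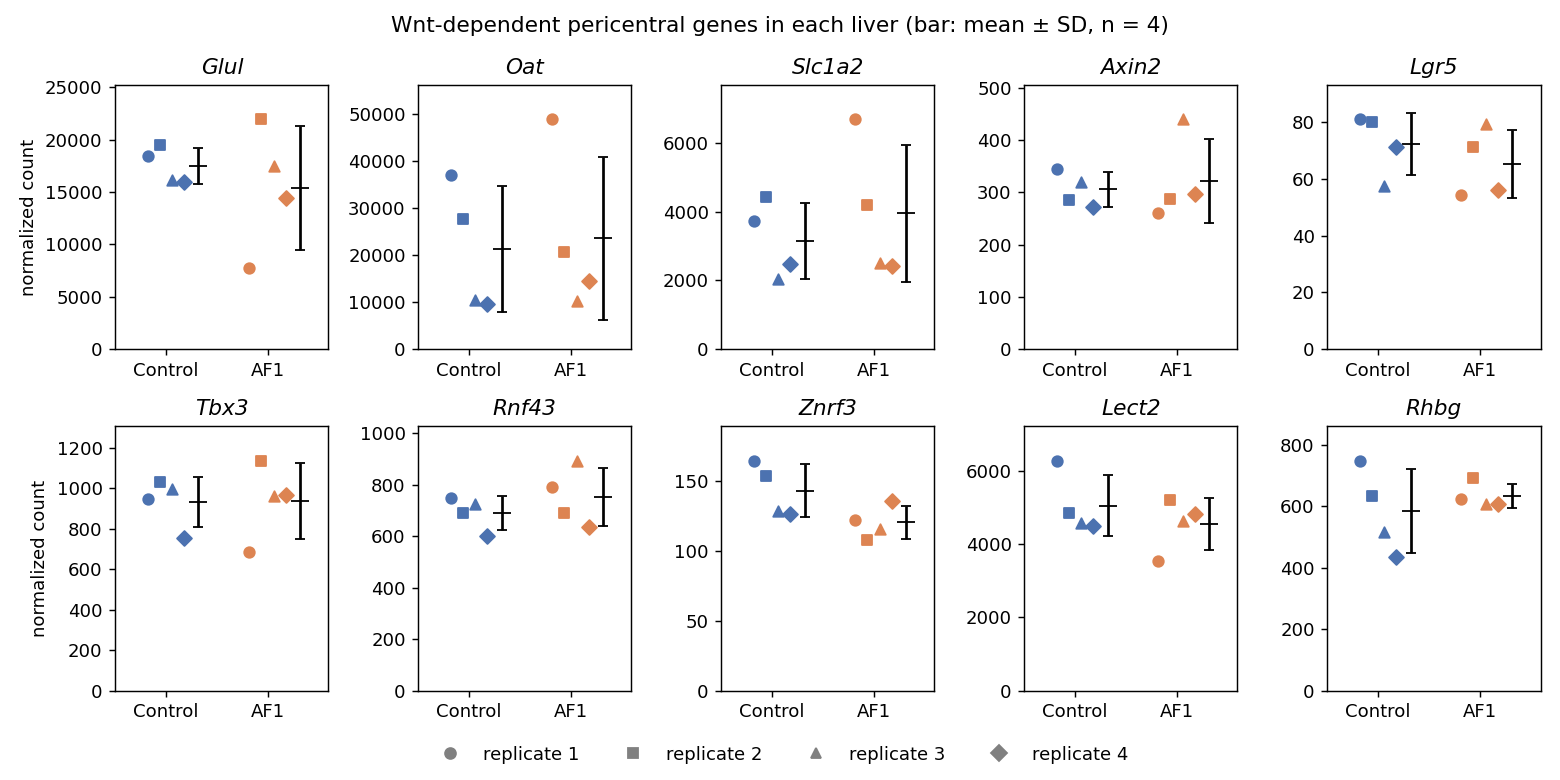
Normalized count of each gene (y axis from 0, scale differs between panels) in 4 control (blue) and 4 AF1 peptide-treated (orange) mice, with replicates by marker shape and the mean ± SD as a black bar. The groups overlap in all 10 panels, and AF1 peptide replicate 1 (circle) is lowest for Glul at 7792 and highest for Oat at 48817.

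**Figure D3:**
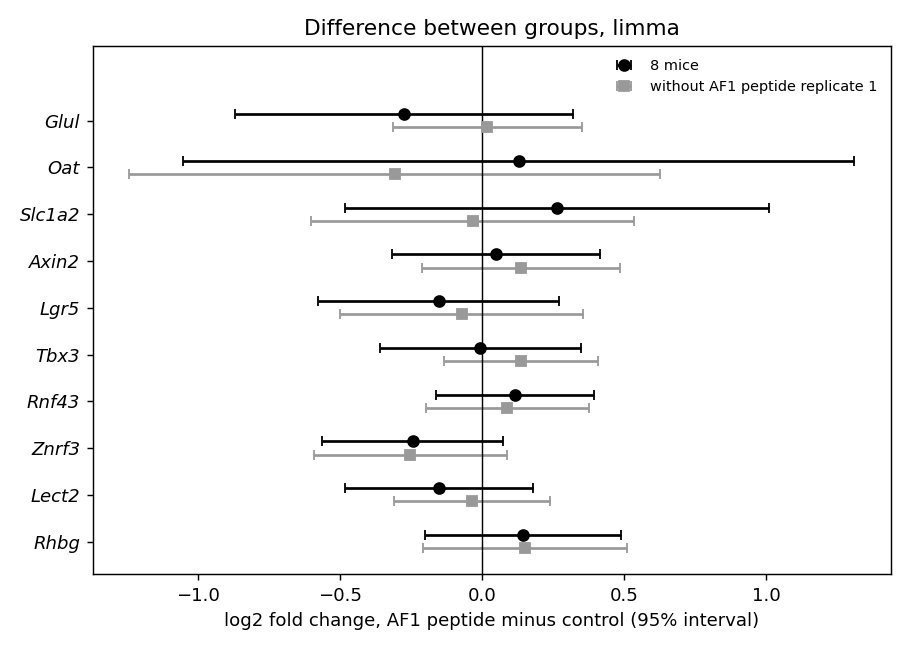
Log2 fold change of each gene, AF1 peptide minus control, with its 95% interval from limma, over 8 mice (black circles) and without AF1 peptide replicate 1 (grey squares). Every interval includes 0, and without that mouse Glul moves from -0.28 to 0.02 and Oat from 0.13 to -0.31.

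The spread between mice was uneven among the 10 genes. On the log2 scale the SD within groups was 0.97 for Oat, and 1.81% of all tested genes had a larger one. For Slc1a2 it was 0.61, with 9.48% of genes above it, and for Glul 0.46, with 18.6% above. For the other 7 genes, 46.4% (Tbx3) to 73.4% (Znrf3) of tested genes were more variable. These shares were taken over all tested genes, whatever their level. Without AF1 peptide replicate 1, an alternative chosen after seeing the data, the SD of Glul was 0.22, with 45.4% of genes above it, while Oat stayed at 0.82 (1.68% above) and Slc1a2 at 0.49 (10.3% above).

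The 10 genes did not move as a block from mouse to mouse. AF1 peptide replicate 1 was the lowest of the 8 mice for Glul, Axin2, Lgr5, Tbx3 and Lect2 and the highest for Oat and Slc1a2. In this mouse Glul lay 1.02 below its own mean over the 8 mice on the log2 scale (a deviation of -1.02), and Oat lay 1.38 and Slc1a2 1.02 above theirs. Over all tested genes this mouse was the highest in 25.9% and the lowest in 23.4%. Control replicate 1 was the highest for 4 of the 10 (Lgr5, Znrf3, Lect2 and Rhbg), and control replicate 4 the lowest for 3 (Oat, Rnf43 and Rhbg). The part of the mitochondrial share and of the marker sums of AF1 peptide replicate 1 in these values was not tested.

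**Figure D4:**
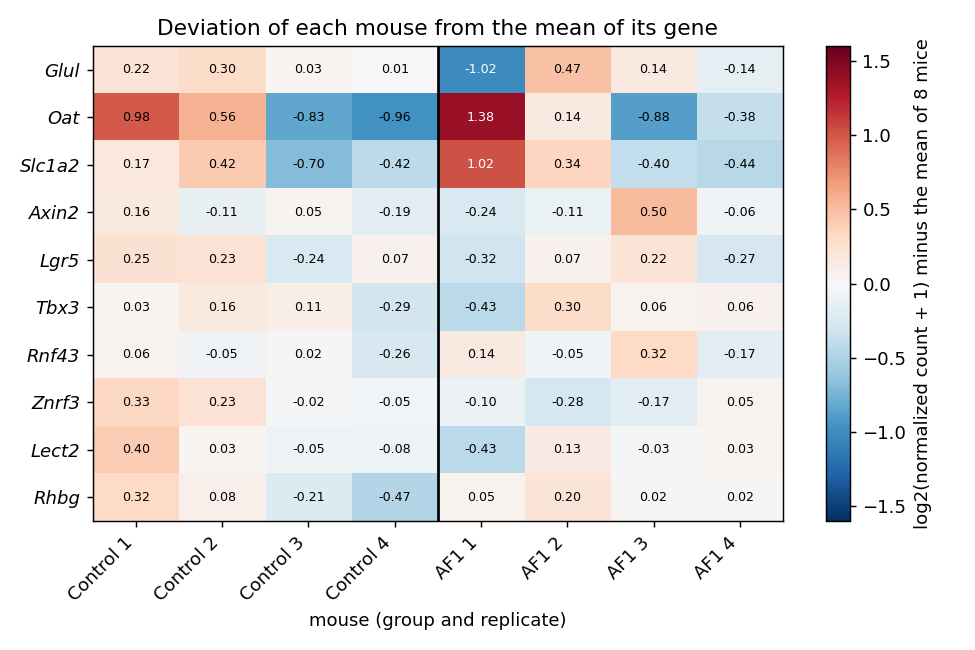
Deviation of log2(normalized count + 1) of each mouse (columns, control left of the line) from the mean of the 8 mice for each gene (rows), in red above and blue below. Oat runs from -0.96 to 1.38, and in AF1 peptide replicate 1 Glul is at -1.02 while Slc1a2 is at 1.02.

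The pattern of Oat over the mice was shared by genes of both sides of the lobule. The same 4 highest mice as for Oat were found in 473 of all tested genes (2.96%), in 6 of 35 other pericentral genes (17.1%) and in 8 of 23 periportal genes (34.8%). Of the 10 genes, 3 had these 4 highest mice, Oat itself, Slc1a2 and Rhbg. This count was made after the values of Oat were seen and has no test. The pericentral genes were Cyp1a2, Cyp2c37, Gulo, Slc22a3, Lhpp and Gstm6. The periportal genes were Hal and Sds of amino acid breakdown, Pck1 of gluconeogenesis, Cps1, Ass1, Asl and Arg1 of the urea cycle, and Etnppl. AF1 peptide replicate 1 was the highest mouse for 15 of the 23 periportal genes and for 12 of the 35 other pericentral genes. It was the lowest for 1 and 9 of them. Over all tested genes it was the highest in 25.9% and the lowest in 23.4%.

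Of the other genes of the Wnt pathway, 68 were listed by role, 61 were in the table and 53 passed the filter. limma called 3 of these 53 higher with AF1 peptide, against 1.79% of all genes, and 2 lower, against 1.90%, with a median log2 fold change of -0.06. The adjusted p was 0.763 for each of the 5, so that none of these calls passed adjustment. Without the fold threshold, 6 of the 53 had a limma unadjusted p under 0.05, against 6.19% of all genes. With libraries scaled to equal totals, the calls over all genes shifted from 286 higher and 304 lower to 122 higher and 602 lower.

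Among 11 tested ligands and secretion genes, Wnt9b and Porcn were called higher, against 1.79% of all genes. Wnt9b, a ligand of central vein endothelium, had 52.7, 67.9, 56.2 and 51.9 normalized counts in control and 51.3, 118.7, 88.1 and 94.6 in AF1 peptide-treated mice. Of the latter, replicate 1 was lower and the other 3 were higher than every control mouse. Its log2 fold change was 0.56 ± 0.25 (SE), limma unadjusted p = 0.0443, and with 1 mouse left out the call held only without control replicate 2 (0.65) or AF1 peptide replicate 1 (0.80), while the other 6 fits gave 0.40 to 0.56. Porcn, the enzyme that attaches the lipid Wnt proteins need for secretion, had 41.2 to 69.2 in control and 67.6 to 82.1 in AF1 peptide-treated mice, with a log2 fold change of 0.60 ± 0.20 (SE), limma unadjusted p = 0.013. Wnt2 and the R-spondin gene Rspo3, the other ligands named for the central vein, were not called. Wnt2 had 76.6 to 87.9 in control and 23.3 to 93.9 with AF1 peptide (log2 fold change -0.59, limma unadjusted p = 0.128). Rspo3 had 108.1 to 161.5 and 122.1 to 144.2 (log2 fold change -0.04). Of the 11 ligands and secretion genes, 3 had a log2 fold change above 0 and 8 below 0, with a median of -0.10. The summed count of 6 markers of central vein endothelium, Wnt9b, Wnt2 and Rspo3 among them, was 472 to 552 in control and 378 to 616 in AF1 peptide-treated mice. Of the 6, 2 were called, against 3.69% of all genes, Wnt9b higher and Thbd lower (log2 fold change -0.55). Of the other marker lists, 1 of 7 macrophage markers (Adgre1) and 1 of 7 stellate markers (Dcn) were called, and 0 in each of the rest.

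None of 9 tested receptors was called, and their log2 fold changes ran from -0.36 to 0.21. Among 5 tested extracellular inhibitors, Sfrp1, which binds Wnt proteins outside the cell, was called higher, against 1.79% of all genes. Its normalized counts were 10.7, 15.8, 8.65 and 5.86 in control and 25.2, 16.4, 22.2 and 16.5 in AF1 peptide-treated mice, without overlap. The log2 fold change was 0.96 ± 0.34 (SE), limma unadjusted p = 0.0176, at a level of few counts. Of 13 signal transduction genes and 8 nuclear factors none was called, against 3.69% of all genes, β-catenin itself (Ctnnb1) included. Amer1, a transduction gene, had 116.2 to 131.9 in control and 142.5 to 148.4 in AF1 peptide-treated mice, without overlap. Its limma unadjusted p was 0.0444, but its log2 fold change of 0.27 did not reach 1.3-fold. Ctnnb1 had 957.7 to 1209 in control and 778.1 to 1132 in AF1 peptide-treated mice, with a log2 fold change of -0.25, limma unadjusted p = 0.0969.

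Among 7 further genes known to respond to the pathway, Tnfrsf19 and Ccnd1 were called lower. Tnfrsf19, a receptor of the TNF family, had 410.4, 508.1, 371.8 and 370.2 normalized counts in control and 208.1, 316.0, 374.8 and 288.4 in AF1 peptide-treated mice. Only AF1 peptide replicate 3 reached the control range. Tnfrsf19 had a log2 fold change of -0.50 ± 0.18 (SE), limma unadjusted p = 0.0189, and the call was lost without control replicate 2 (-0.40) and, by its size, without AF1 peptide replicate 1 (-0.34). Ccnd1, the cell cycle gene of cyclin D1, had 213.4, 348.6, 249.7 and 350.9 in control and 104.5, 104.1, 216.7 and 251.6 in AF1 peptide-treated mice. AF1 peptide replicates 1 and 2 were below every control mouse and replicates 3 and 4 within their range. Ccnd1 had a log2 fold change of -0.86 ± 0.31 (SE), limma unadjusted p = 0.0178, and the call was lost without control replicate 2 (-0.76), control replicate 4 (-0.76) or AF1 peptide replicate 2 (-0.67). Over the whole list the groups did not overlap for 5 of 53 genes (Wnt9a, Sfrp1, Kremen1, Dvl3 and Amer1), against 3.90% of all genes.

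**Figure D5:**
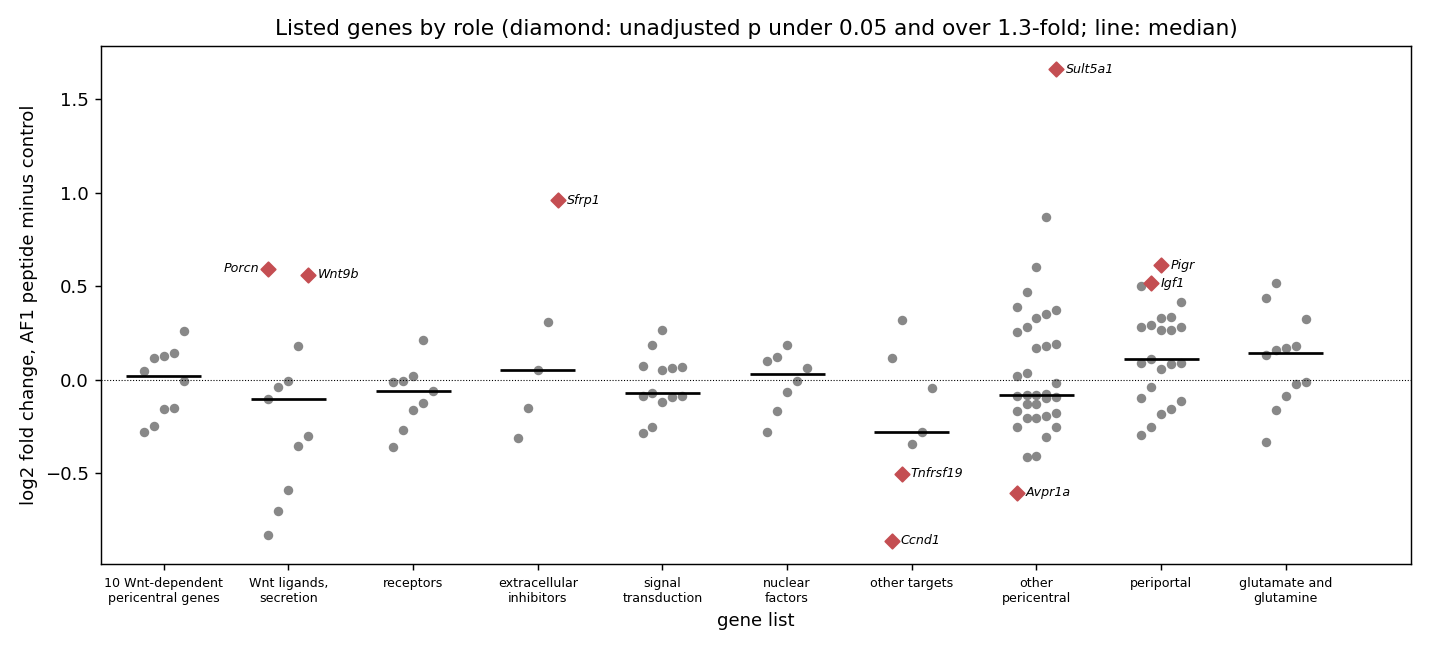
Log2 fold change, AF1 peptide minus control, of every tested gene of each list (1 point per gene, lists along the x axis), with called genes as red diamonds and the median as a line. The 10 Wnt-dependent pericentral genes lie between -0.28 and 0.26 with no called gene, and the pathway genes called reach from -0.86 for Ccnd1 to 0.96 for Sfrp1.

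Of 35 other pericentral genes tested, 1 was called higher, against 1.79% of all genes, and 1 lower, against 1.90%, and the median log2 fold change was -0.08. Sult5a1, a sulfotransferase, had 13.2, 27.6, 16.2 and 5.02 normalized counts in control and 36.4, 82.2, 46.1 and 27.6 in AF1 peptide-treated mice. The lowest AF1 peptide-treated mouse lay just below the highest control mouse. Its log2 fold change of 1.66 ± 0.48 (SE), limma unadjusted p = 0.0057, rested on low counts, and the adjusted p was 0.763. Avpr1a, a vasopressin receptor of hepatocytes, had 217.6, 138.9, 204.3 and 100.5 in control and 81.2, 100.5, 117.8 and 119.4 in AF1 peptide-treated mice, with a log2 fold change of -0.60 ± 0.25 (SE), limma unadjusted p = 0.0336. This call was lost without control replicate 1 (-0.45), control replicate 3 (-0.48), AF1 peptide replicate 1 (-0.49) or AF1 peptide replicate 2 (-0.59). Cyp27a1, a sterol hydroxylase of bile acid synthesis, had limma unadjusted p = 0.0224 but did not reach 1.3-fold (log2 fold change 0.35). Cyp2e1, a cytochrome P450 used to mark pericentral hepatocytes, had 61920 to 111379 in control and 59170 to 117704 in AF1 peptide-treated mice (log2 fold change -0.09).

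Among 23 periportal genes, 2 were called higher and 0 lower, against 1.79% and 1.90% of all genes, with a median log2 fold change of 0.11. Pigr, the receptor that carries immunoglobulin A into bile, had 9927, 10525, 15515 and 12188 normalized counts in control and 20749, 20500, 12610 and 20190 in AF1 peptide-treated mice. All but AF1 peptide replicate 3 exceeded every control mouse. The log2 fold change was 0.61 ± 0.20 (SE), limma unadjusted p = 0.0108. Igf1, the growth factor that liver releases into blood, had 9342, 7315, 11114 and 7678 in control and 14584, 13697, 10530 and 11586 in AF1 peptide-treated mice, with a log2 fold change of 0.52 ± 0.16 (SE), limma unadjusted p = 0.00928. The desaturase gene Fads1 had 12453 to 14694 in control and 10675 to 12448 in AF1 peptide-treated mice, without overlap, at a log2 fold change of -0.25 that did not reach 1.3-fold. No adjusted p of these genes was under 0.763 in limma.

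Genes that share substrates with Glul, Oat and Slc1a2 were 15 in the list, of which 12 were tested and 0 were called or had an unadjusted p under 0.05 in limma, against 3.69% and 6.19% of all genes. Their median log2 fold change was 0.15. Prodh, which like Oat leads an amino acid toward glutamate, had 7968, 5632, 6467 and 5818 normalized counts in control and 16001, 9797, 6136 and 7405 in AF1 peptide-treated mice. Prodh had a log2 fold change of 0.52 ± 0.26 (SE), limma unadjusted p = 0.0718, and AF1 peptide replicates 1 and 2 exceeded every control mouse. It was 0.25 without AF1 peptide replicate 1. Prodh was called higher in edgeR (0.60), in DESeq2 (0.60) and without AF1 peptide replicate 3 (0.71). Slc38a2, an amino acid transporter that takes up glutamine, had 1503 to 1963 in control and 1527 to 5525 in AF1 peptide-treated mice (log2 fold change 0.44, limma unadjusted p = 0.223, and 0.02 without AF1 peptide replicate 1). Glud1, glutamate dehydrogenase, had 16376 to 19762 and 13392 to 17207 (log2 fold change -0.16, limma unadjusted p = 0.233). Of these 12 genes, 8 were highest and 2 lowest in AF1 peptide replicate 1, against 25.9% and 23.4% of all tested genes.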

How the data were processed

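Per the labels, RNA of each liver was taken up in TRIzol and stranded mRNA libraries were prepared from it. The authors used Trim Galore 0.6.7, HISAT2 and SAMtools 1.17 before counting reads per gene with GenomicAlignments, and the labels' processing notes name the build mm39. The annotation, the use of strand and the handling of multi-mapped reads are not given in the sources used here. The deposited signal was a normalized count, reads divided by a size factor of the library. With the smallest nonzero value of each library taken as a single read, 100% of 172256 values came out as whole reads within 0.01 read.

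The values were compared on the log2(normalized count + 1) scale by limma 3.58.1 (R 4.3.3) with an intensity trend, over 15989 genes with a mean of at least 10, and p-values were adjusted by Benjamini-Hochberg over these genes. Fold changes on this scale understate those of low genes. For comparisons of 2 groups in general the study gives an unpaired two-tailed test, to which each gene's own variance was the nearest alternative. Alternatives were TMM or equal-total scaling, pseudocounts of 0.5 and 5, other filters, limma without trend, each gene's own variance, edgeR 4.0.16, DESeq2 1.42.0, a replicate block and each mouse left out. The labels name no batch.

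The 10 genes and all lists were chosen with earlier results of these data known. Called genes of each other list were named, filled up to 3 by smallest p, and for Glul and Axin2 the 3 most alike genes. Ctnnb1, Wnt2, Rspo3, Cyp2e1, Thbd, Adgre1, Dcn, Pycr1, Got1, Myc, Nkd1, Nkd2, Cd44 and Sp5 were chosen after their values were seen. The same holds for genes named for non-overlap, for a mouse's rank or for likeness to Oat. Exon lengths, overlaps and shared 50-base words came from GENCODE M21 (GRCm38) by symbol (85.9% of 21532 matched), since the build differs from mm39.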

Additional observations from a re-analysis of the deposited data

Results flagged for a closer look

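In each group of 4 mice, the gap of the highest or lowest mouse to its neighbour was compared with the range of the group for the 24 genes named by rule. In 2 of the 48 groups this ratio exceeded Dixon's 95% critical value for 4 samples, which chance passes in about 1 of 20 groups. Pigr in AF1 peptide replicate 3 had 12610 normalized counts while replicates 1, 2 and 4 had 20190 to 20749 (ratio 0.931). Slc38a2 in AF1 peptide replicate 1 had 5525 against 1527 to 1855 (ratio 0.918). None of the 10 Wnt-dependent pericentral genes had such a mouse.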

How the results depend on the processing

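None of the 10 genes had a p under 0.05 in any of 190 fits (19 alternatives), with a smallest p of 0.0814, for Znrf3 with its own variance. The sign turned in 14 of these fits. Axin2 turned to -0.0429 with equal totals, and Tbx3 to 0.0045 in edgeR and 0.0071 in DESeq2. With 1 mouse left out, log2 fold changes ran from -0.48 to 0.0185 for Glul, -0.31 to 0.48 for Oat, -0.0322 to 0.45 for Slc1a2, -0.11 to 0.14 for Axin2 and -0.11 to 0.14 for Tbx3, while the other 5 genes kept their sign, from 0.0118 to 0.27 for Rhbg, 0.0296 to 0.19 for Rnf43, -0.22 to -0.0351 for Lect2, -0.26 to -0.0715 for Lgr5 and -0.30 to -0.18 for Znrf3. Tbx3 was above 0 without control replicate 1, 2 or 3 or AF1 peptide replicate 1.

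Wnt pathway genes called were 5 in limma, 3 with equal totals, 2 with own variance and 3 to 6 with 1 mouse left out (3 without control replicate 2 or AF1 peptide replicate 2). Other pericentral genes called were 2, with 1 at a minimum of 10 in every mouse, 1 with own variance, 4 with the replicate block and 1 to 4 with 1 mouse left out (4 without control replicate 1, 1 without AF1 peptide replicate 2). Periportal genes called were 2, with 4 in DESeq2 and 2 to 4 with 1 mouse left out (4 without AF1 peptide replicate 3). Glutamate and glutamine genes called were 0, with 1 with no filter (Pycr1), 1 in edgeR, 1 in DESeq2 and 1 with the replicate block (Prodh in each), and 0 to 1 with 1 mouse left out (Got1 without AF1 peptide replicate 1, Prodh without AF1 peptide replicate 3). The causes were not tested. The labels give same-numbered mice a replicate number and no pairing or batch, and whether they shared more than the number was not tested. Correlations of their deviations were 0.235, 0.024, 0.216 and -0.064 for replicates 1 to 4, and 4 of 8 mice correlated best with their own number. With the replicate block limma called 341 genes higher and 392 lower (1244 with an unadjusted p under 0.05), and 0 of the 10. Over all genes, own variance called 214 higher and 197 lower, no filter 435 and 459, and leaving out AF1 peptide replicate 1 457 and 491, or control replicate 2 198 and 173. Porcn and Wnt9b were not called with equal totals. The spread between 4 mice a group and, for Lgr5 and Znrf3, few reads limit what differences could be seen.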

Other observations

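Genes whose log2 values over the 8 mice, centred on their mean, were nearest to those of Glul were Nr1d1, Car2 and Fli1, with root-mean-square differences of 0.10, 0.12 and 0.14, where Glul itself deviated by 0.42. They were sought among 12442 tested genes with a mean of at least 50. For Axin2, which deviated by 0.22, they were Ecm1 (0.05), Fan1 (0.07) and Cuedc1 (0.09). For Oat, added after its values were seen and deviating by 0.84, they were Tuba8 (0.35), Ass1 (0.37) and 1700001L05Rik (0.39). Ass1, argininosuccinate synthase of the urea cycle, is in the periportal list. None of the 10 Wnt-dependent pericentral genes was among the 3 nearest of Glul, Axin2 or Oat. Nearest genes of the other members were not sought. These values describe 8 mice of these libraries and have no test.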
